A study of Homo sapiens with 8 samples.

Results

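The genes described here are the chemokines, the interleukins and the receptors of both families, as transcribed in hCMEC/D3. This immortalised human line comes from the endothelium of brain microvessels, and it serves in culture as a stand-in for the blood-brain barrier. Members were taken by symbol: every listed gene whose name began with a chemokine or chemokine receptor prefix (CCL, CXCL, CX3CL, XCL, CCR, CXCR or CX3CR) or with IL and a number, apart from antisense and pseudogene symbols. This gave 153 of 23346 listed genes, namely 46 chemokines, 18 chemokine receptors, 45 interleukins, 43 interleukin receptors or binding proteins, and IL4I1, an amino acid oxidase. Polyadenylated RNA of 8 replicate samples of the line was sequenced, so the study held 1 group and no contrast between conditions. The labels gave no treatment, medium, passage or date, and did not say whether the replicates came from separate cultures, so p-values measure only the spread between these samples, which may be technical.

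Chemokines are small secreted proteins that bind G protein-coupled receptors on leukocytes and direct their migration, and endothelial cells display them on the vessel wall. Interleukins act through receptor chains that pair with shared signalling subunits such as gp130 (IL6ST), the common gamma chain (IL2RG) or the IL-1 receptor accessory protein (IL1RAP), and they reach JAK and STAT proteins or the MyD88 and NF-kappaB route. At the blood-brain barrier these signals are known for controlling leukocyte adhesion and barrier permeability in inflammation.

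Total counts per library ran from 69388544 to 90205244, and every count in the table was even, which corresponds to 34694272 to 45102622 read pairs. All 13 endothelial markers listed, among them CDH5 and PECAM1, were detected, with a summed level of 3535 to 5769 CPM (counts relative to the TMM-scaled library size). Of 16 leukocyte markers, 3 were detected: CD14 at 1.31 CPM, LYZ at 1.97 CPM and CD68, a lysosomal protein also made outside leukocytes, at 58.8 CPM. The pan-leukocyte marker PTPRC had 0.426 CPM, CD2 had 0 counts in every library, and the list summed to between 53.2 and 89.8 CPM. Of 10 mural and fibroblast markers 4 were detected, namely CSPG4 at 32.9, RGS5 at 14.4, PDGFRB at 9.57 and ACTA2 at 4.74 CPM, while the fibroblast genes DCN and LUM had under 0.05 CPM in every library, and the list summed to between 45.5 and 70.6 CPM. Of 8 epithelial markers 3 were detected, the keratins KRT18 at 357.9, KRT8 at 26.1 and KRT19 at 2.61 CPM, while EPCAM had 0.943 and CDH1 0.309 CPM, and the list summed to between 318.3 and 510.9 CPM. Replicates 2 and 8, and to a smaller degree replicate 7, differed from the others in how counts depended on transcript length. The slope of a library's log2 deviations on log2 length was -0.22 in replicate 2 and -0.34 in replicate 8, -0.11 in replicate 7, and between 0.09 and 0.15 in the other libraries.

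A smaller share of these genes was detected than of all listed genes. A gene was called detected when it had at least 1 CPM in all 8 libraries. Of the 153 members 39 were detected (25.5%), against 51.3% of all listed genes. The receptors and binding proteins of interleukins had the highest share with 18 of 43 detected (41.9%), followed by chemokines with 13 of 46 (28.3%) and interleukins with 7 of 45 (15.6%), while 0 of 18 chemokine receptors reached the level. The detected members were also low, with a median of 9.35 CPM against 37.7 CPM over all detected genes.

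Among the undetected were 14 members with 0 counts in all libraries: CCL13, CCL3L1, CCL3L3, CCL4L1, CCL4L2, XCL1, XCL2, CCR8, CXCR1, IL2, IL28B, IL3, IL9 and IL5RA. A count of 0 in all libraries allows a level of up to 0.00964 CPM (3 read pairs of the 8 libraries together, counting error only). CCL3L1, CCL3L3, CCL4L1 and CCL4L2 are near-identical copies with overlapping intervals in the table, so their 0 does not exclude reads that could not be assigned to one copy. IL17A, the T cell cytokine, had counts in 1 of 8 libraries. There were 78 members with counts in every library, so 39 of them lay below the detection level.

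In CPM, where long transcripts weigh more, interleukin receptors made up most of the summed level. The 43 interleukin receptors and binding proteins together had 956.9 ± 156 CPM (SD, n = 8), the 46 chemokines 258 ± 42.1 CPM, the 45 interleukins 155 ± 23.0 CPM and the 18 chemokine receptors 5.62 ± 0.505 CPM. The chemokine receptor sum stayed between 4.87 and 6.30 CPM in the 8 libraries, whereas the chemokine sum ran from 174.9 CPM in replicate 5 to 300.4 CPM in replicate 1. To compare genes with each other, CPM was divided by the length of the canonical transcript, which gives RPKM (CPM per kilobase). Summed per length over the 149 members with a length, the roles were closer, with 209.7 ± 16.7 RPKM for interleukin receptors and binding proteins (36.7%), 184.6 ± 31.7 for chemokines (32.3%) and 173 ± 29.5 for interleukins (30.3%). The interleukin sum was mostly a single gene, IL32, with 156.9 ± 31.2 RPKM, so it does not describe interleukins as a class.

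**Figure D1:**
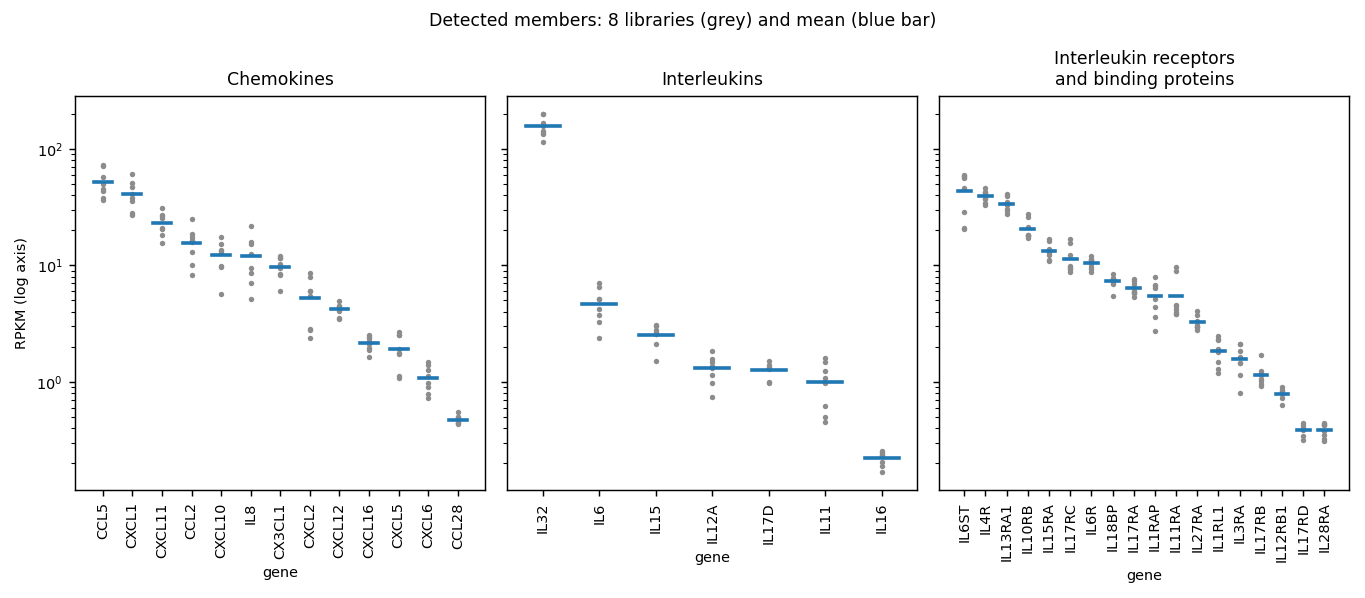
RPKM (log axis) of the detected chemokines, interleukins, and interleukin receptors and binding proteins, with 1 grey point per library and a blue bar at the mean of 8 libraries. IL32 with a mean of 156.9 RPKM stands above all other members, CCL5 and CXCL1 lead the chemokines, and IL6ST, IL4R and IL13RA1 lead the receptors.

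Among the chemokines, 3 groups held most of the RNA: the neutrophil-attracting CXC chemokines, the interferon-inducible ligands of CXCR3, and CCL5, CCL2 and CX3CL1, which act on T cells, monocytes and natural killer cells. Promoters are shown for the 3 genes with the highest CPM in the first group, for the detected pair of the second, and for IL6 and IL11, because these genes recur in the results on variation and relations. CCL5 and CCL2 were also chosen, but the promoter sequences used here held no entry for them. Each is the 250 bases before the RefSeq transcription start in GRCh38.p14, 5' to 3' on the gene's strand. Capitals mark matches, on either strand, to the kappaB motif GGNNTTTCC (bound by NF-kappaB), the AP-1 motif TGANTCA or the interferon response element (ISRE: GAAA, any 2 bases, GAAA). Only these letters were searched, so sites of another form are neither marked nor counted. The windows are CXCL1 at chr4:73869143-73869392 (+), CXCL2 at chr4:74099196-74099445 (-), IL8 at chr4:73740319-73740568 (+), CXCL10 at chr4:76023498-76023747 (-), CXCL11 at chr4:76036071-76036320 (-), IL6 at chr7:22726950-22727199 (+) and IL11 at chr19:55370464-55370713 (-).
CXCL1: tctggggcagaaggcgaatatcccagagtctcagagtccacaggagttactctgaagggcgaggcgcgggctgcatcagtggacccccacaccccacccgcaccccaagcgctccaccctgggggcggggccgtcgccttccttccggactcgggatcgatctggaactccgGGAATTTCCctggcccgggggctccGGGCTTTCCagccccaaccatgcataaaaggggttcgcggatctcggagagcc
CXCL2: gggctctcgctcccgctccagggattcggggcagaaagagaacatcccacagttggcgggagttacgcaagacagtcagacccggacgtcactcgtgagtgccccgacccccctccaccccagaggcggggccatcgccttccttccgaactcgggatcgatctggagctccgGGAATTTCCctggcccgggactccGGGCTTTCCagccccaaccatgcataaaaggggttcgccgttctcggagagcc
IL8: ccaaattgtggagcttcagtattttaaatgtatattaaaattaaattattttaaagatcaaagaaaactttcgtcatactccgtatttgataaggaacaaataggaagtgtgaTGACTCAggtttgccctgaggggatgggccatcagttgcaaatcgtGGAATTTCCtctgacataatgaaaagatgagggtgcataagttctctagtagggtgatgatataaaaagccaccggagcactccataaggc
CXCL10: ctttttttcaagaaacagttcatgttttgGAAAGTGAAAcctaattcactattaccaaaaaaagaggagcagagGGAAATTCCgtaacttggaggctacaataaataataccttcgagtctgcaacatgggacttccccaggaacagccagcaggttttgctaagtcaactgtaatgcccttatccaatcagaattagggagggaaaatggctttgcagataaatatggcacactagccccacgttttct
CXCL11: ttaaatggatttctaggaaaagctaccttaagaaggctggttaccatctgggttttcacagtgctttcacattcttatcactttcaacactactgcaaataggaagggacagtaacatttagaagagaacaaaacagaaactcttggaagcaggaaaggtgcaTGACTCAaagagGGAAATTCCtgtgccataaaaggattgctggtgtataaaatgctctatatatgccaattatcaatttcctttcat
IL6: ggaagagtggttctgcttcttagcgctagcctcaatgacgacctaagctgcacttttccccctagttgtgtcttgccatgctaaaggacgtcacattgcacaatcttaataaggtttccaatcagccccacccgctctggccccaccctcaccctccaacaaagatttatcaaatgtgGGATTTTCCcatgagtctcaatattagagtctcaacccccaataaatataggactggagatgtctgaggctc
IL11: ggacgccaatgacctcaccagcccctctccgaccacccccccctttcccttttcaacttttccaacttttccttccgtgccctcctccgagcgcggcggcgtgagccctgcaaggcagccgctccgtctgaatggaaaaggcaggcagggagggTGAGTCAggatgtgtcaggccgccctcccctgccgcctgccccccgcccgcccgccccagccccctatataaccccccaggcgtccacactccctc

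CXCL1 and CXCL2 each had 2 kappaB matches near the start, at -78 to -70 and -53 to -45 in CXCL1 and at -77 to -69 and -53 to -45 in CXCL2. Both promoters were alike over 70.1% of aligned positions (197 of 281 columns), whereas CXCL1 and IL8 had 43.9% and CXCL10 and CXCL11 had 49.7%. IL8 had a kappaB match at -91 to -83 and an AP-1 match at -137 to -131. CXCL10 combined a kappaB match at -176 to -168 with an interferon element at -221 to -212, and CXCL11 a kappaB match at -75 to -67 with an AP-1 match at -87 to -81. The single match in IL6 was kappaB at -72 to -64, and that in IL11 was AP-1 at -96 to -90. Over 27305 RefSeq promoters of this length, the kappaB letters occurred in 5.48%, the AP-1 letters in 6.6% and the interferon element in 3.07%. The kappaB letters occurred in 7 of 9 promoters of detected chemokines (77.8%) and in 2 of 22 of undetected chemokines (9.09%). The AP-1 letters occurred in 2 of 9 and 4 of 22 of these. Only 9 of the 13 detected chemokines had a promoter sequence, with CCL5 and CCL2 among those without. The undetected chemokines were likewise covered only in part. These motifs were chosen with knowledge of such promoters and several of the genes arose by duplication, so the shares are a description of these sequences and not of binding.

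Of the 6 neutrophil-attracting chemokines with the ELR motif among the members, 5 were detected and all lie in a cluster on chromosome 4 (hg19). CXCL1 (74735109 to 74737019, plus strand) led them with 48.3 ± 13.6 CPM, or 41.2 ± 11.6 RPKM. Its lowest level was 31.7 CPM in replicate 7, its median 46.4 and its highest 72.2 CPM in replicate 4. IL8, now named CXCL8 (74606223 to 74609433, plus strand, 4 exons), had 26.3, 11.7, 20.5, 35.5, 14.2, 25.1, 15.5 and 8.47 CPM in replicates 1 to 8. Replicate 4 was highest and replicate 8 lowest, and the mean was 19.7 ± 8.96 CPM. CXCL2 (74962754 to 74964997, minus strand) had 9.51, 3.08, 6.68, 8.92, 2.67, 6.75, 3.14 and 6.06 CPM. Replicates 1 and 4 were high and replicates 2, 5 and 7 low. CXCL5 had 4.67 ± 1.52 CPM and CXCL6 had 1.67 ± 0.429 CPM, and CXCL3 stayed below the level with 0.674 ± 0.212 CPM. CXCL1, CXCL2 and CXCL3 are close paralogs, and how the authors' counting treated reads that map to more than one of them is not given in the sources used here, so the split between them is uncertain.

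Per length, CXCL1 exceeded CXCL2 in all 8 libraries, by 3.04 ± 0.43 on the log2 scale of RPKM + 0.1 (exact sign-flip permutation, two-sided, p = 0.00781, adjusted p = 0.00901 over 15 gene pairs). This p is the smallest that 8 libraries can give. In some pairs only 1 gene was detected, and the detection rule itself favours that gene. Their p-values therefore add no support for the direction. These pairs were CXCL12 with CXCR4, IL4R with IL2RG, IL13RA1 with IL13RA2, IL10RB with IL10RA, IL1RAP with IL1R1, IL1RL1 with IL33, and IL18BP with IL18. IL8 lay below CXCL1 in all 8 libraries, with a log2 ratio of -1.86 ± 0.47 (exact permutation, adjusted p = 0.00901) that was -0.74 on the authors' CQN values. The 6 members of the group together, CXCL3 included, summed to between 55.6 CPM in replicate 5 and 125.5 CPM in replicate 4.

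The CXCR3 ligands draw activated T cells and natural killer cells. CXCL11 (chromosome 4, 76954840 to 76957350, minus strand) had 34.3 ± 7.75 CPM, from 23.0 in replicate 5 through a median of 34.3 to 46.3 in replicate 1. CXCL10 (76942269 to 76944689, minus strand) had 14.3 ± 4.33 CPM, from 6.63 in replicate 5 through a median of 15.4 to 20.6 in replicate 1. Replicate 1 was thus highest and replicate 5 lowest for both. CXCL9, the third ligand, had 0.53 ± 0.222 CPM and was not detected. Both detected genes overlap the longer gene ART3 in the table. For them, reads from either gene could not be separated without knowing the strand setting of the counting, which is not given in the sources used here.

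CCL5 was the chemokine with the highest level, at 67.4 ± 18.5 CPM and 51.9 ± 14.2 RPKM. The gene (chromosome 17, 34198496 to 34207377, minus strand) encodes RANTES, an attractant of T cells, monocytes and eosinophils. Its levels in replicates 1 to 8 were 64.8, 93.1, 58.4, 57.1, 47.3, 49.4, 74.5 and 94.8 CPM, highest in replicates 2 and 8. These are the libraries with the most negative length slopes, and the part of that slope in the CCL5 values was not tested. On the authors' CQN values, which adjust each library for length and GC content, the SD of CCL5 was 0.17 in place of 0.38 on log2(CPM + 0.1). CCL2 (chromosome 17, 32582296 to 32584220, plus strand), the monocyte attractant MCP-1, had 11.6 ± 3.93 CPM, from 6.17 in replicate 5 through a median of 11.9 to 18.7 in replicate 8. CX3CL1 (chromosome 16, 57406414 to 57418956), a membrane-bound chemokine that also holds leukocytes to endothelium, had 31.9 ± 6.87 CPM, from 19.9 in replicate 5 through 32.3 to 39.6 in replicate 8. CX3CL1 was higher than CCL2 in CPM but lower per length, with a log2 ratio of -0.64 ± 0.23 and CCL2 higher in 8 of 8 libraries (exact permutation, adjusted p = 0.00901). That order rests on the length correction: the log2 ratio was 1.49 on CPM and 1.39 on the authors' values.

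The other detected chemokines were low. CXCL12, the homeostatic ligand of CXCR4, had 8.11 ± 0.955 CPM, with the 8 libraries between 6.72 and 9.60. CXCL16, a membrane-bound ligand of CXCR6, had 5.00 ± 0.724 CPM, and its interval overlaps MED11. CCL28, a mucosal chemokine, had 1.48 ± 0.127 CPM. CCL20, the CCR6 ligand, was not detected at 0.374 ± 0.127 CPM. CCL14 had 0.976 ± 0.718 CPM with a highest library of 2.22 CPM, and its interval overlaps the read-through gene CCL14-CCL15.

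Chemokine receptors were near or below the detection level throughout. CCR4, a receptor of type 2 helper and skin-homing T cells, had the highest mean with 2.23, 1.51, 2.38, 2.26, 2.77, 1.82, 1.75 and 0.497 CPM in replicates 1 to 8 (mean 1.9 ± 0.696). Replicate 8 alone lay under 1 CPM. CCR10, the CCL28 and CCL27 receptor, had 1.26, 1.60, 0.996, 1.27, 1.14, 1.18, 1.49 and 2.25 CPM (mean 1.40 ± 0.393), so replicate 3 alone fell just below the level. CCR6 had 0.889 CPM. CXCR4 had 0.558, 0.776, 0.472, 0.716, 0.518, 0.504, 0.341 and 1.11 CPM (mean 0.624 ± 0.240), and replicate 8 alone exceeded 1 CPM.

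**Figure D2:**
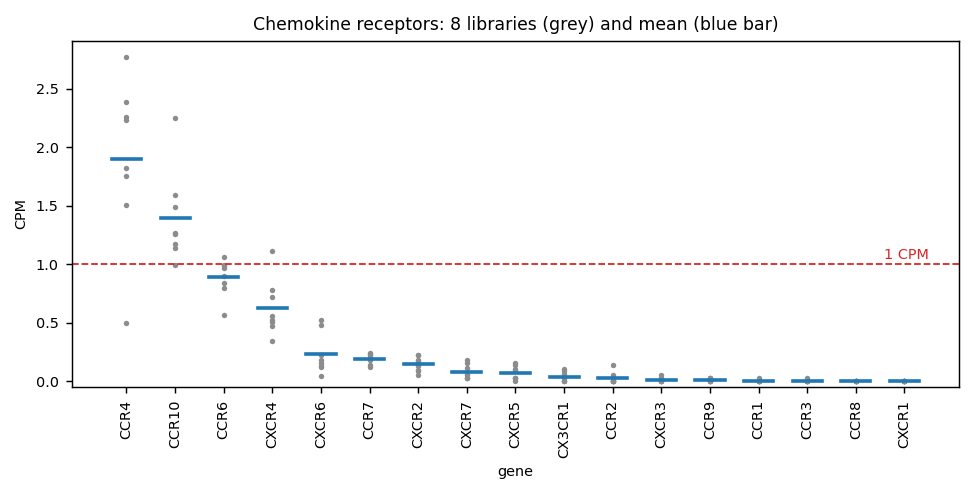
CPM (linear axis) of 17 of the 18 chemokine receptors, with 1 grey point per library, a blue bar at the mean of 8 libraries and a dashed line at 1 CPM. CCR4, CCR10, CCR6 and CXCR4 have libraries on both sides of the line, and the receptors to the right of the plot lie at or near 0.

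The receptors of the abundant chemokines were lower still. CXCR2, a receptor of the ELR chemokines, had 0.144 CPM and CXCR1 had 0 counts. CXCR3 had 0.0126 CPM, CX3CR1 0.0374 CPM, and the CCL2 receptor CCR2 0.0227 CPM. CCR1 and CCR3, which bind CCL5, each had under 0.00964 CPM. CXCR7, now named ACKR3, a scavenger of CXCL12, had 0.0775 ± 0.0618 CPM. CXCL12 exceeded CXCR4 in 8 of 8 libraries by 3.23 ± 0.49 on the log2 scale of RPKM + 0.1 (exact permutation, adjusted p = 0.00901). The detection rule favoured this direction, since CXCL12 was detected and CXCR4 was not. Of 7 further receptors listed beside the members, atypical or orphan ones among them, 3 were detected: CCRL2 at 3.26 CPM, PITPNM3 at 2.46 CPM and CCRL1 at 1.5 CPM. DARC, the chemokine-binding Duffy antigen of venular endothelium, had 0.853 CPM, and XCR1 had 0. Of 14 G proteins, kinases and arrestins that act below chemokine receptors 11 were detected, led by GNAI2 with 746.4 ± 217.7 CPM.

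Among interleukins IL32 stood far above the others. IL32 (chromosome 16, 3115313 to 3119668, 7 exons), a pro-inflammatory cytokine, had 128, 135, 94.2, 111, 117, 113, 164 and 165 CPM in replicates 1 to 8. Replicates 7 and 8 were highest and replicate 3 lowest, and the mean was 128.4 ± 25.5 CPM or 156.9 ± 31.2 RPKM, the highest RPKM of all members with a length. On the authors' CQN values the order was another, with replicate 1 highest at 8.30 and replicates 2 and 8 lowest at 7.64 and 7.65. IL6 (chromosome 7, 22766766 to 22771621, plus strand, 5 exons), the acute-phase cytokine, had 7.42, 4.25, 5.84, 8.01, 4.77, 5.77, 3.65 and 2.67 CPM (mean 5.30 ± 1.83), highest in replicate 4 and lowest in replicate 8. IL15, which sustains natural killer and memory T cells, had 5.22, 6.03, 5.40, 5.59, 6.25, 4.23, 5.24 and 3.03 CPM, lowest in replicate 8.

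IL11, a second cytokine that signals through gp130, lies on chromosome 19 (55875757 to 55881814, minus strand, 5 exons). It had 1.47, 1.09, 2.94, 2.34, 3.50, 2.58, 3.82 and 1.18 CPM. Replicates 1, 2 and 8 were low and replicates 5 and 7 high, an order unlike that of IL6. IL17D had 2.61 CPM, IL16 had 2.14 CPM with an overlap with STARD5, and IL12A, the p35 chain of IL-12, had 1.89 CPM. IL1A, the alarmin of damaged cells, had a mean of 2.67 ± 1.29 CPM but only 0.568 in replicate 8, so it was not called detected. IL23A had 1.46 CPM and IL18 0.897 CPM. IL1B had 0.331 ± 0.164 CPM, the IL-1 receptor antagonist IL1RN 0.116, IL7 0.222 and IL10 0.290 CPM. IL33, a nuclear alarmin of many endothelia, had 0.016 CPM and 0 counts in 4 libraries.

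The interleukin receptors were led by IL6ST, the gp130 subunit shared by IL-6, IL-11 and related cytokines (chromosome 5, 55230925 to 55290821, minus strand, 17 exons). It had 535.3, 184.7, 514.1, 511.1, 415.4, 533.3, 258.3 and 189.4 CPM, with replicates 2, 7 and 8 below all others, and a mean of 43.5 ± 17.4 RPKM. In replicate 2 it had 20.5 RPKM, under the lowest library of IL4R (33.1 RPKM). Per length, IL6ST thus did not lead in every library. Its canonical transcript of 9027 bases is long, and the 3 low libraries are those with negative length slopes. On the authors' CQN values IL6ST lay between 7.99 and 8.55 in the 8 libraries. IL6R, the IL-6-binding chain, had 60.3 ± 6.78 CPM and IL11RA, the IL-11-binding chain, had 9.35 ± 4.16 CPM. IL6ST exceeded IL6R per length in 8 of 8 libraries, by 1.93 ± 0.53 on the log2 scale of RPKM + 0.1 (exact permutation, adjusted p = 0.00901). The IL11RA to IL6R ratio was -1.03 ± 0.67 (exact permutation, p = 0.0312, adjusted p = 0.0312), but IL11RA was slightly the higher in replicates 2 and 8, and leaving out any of replicates 1, 3, 4, 5, 6 or 7 took the adjusted p to 0.0625. The ratio was -2.30 with the length of all exons, -2.77 on CPM and -1.71 on the authors' CQN values, where IL11RA lay below IL6R in every library (-1.97 to -1.16). Of 10 other ligands and receptors using gp130 or a related subunit, 5 were detected, among them OSMR at 90.4 ± 29.2, LIFR at 28 ± 10.2, CLCF1 at 7.25 and LIF at 2.97 CPM.

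Both chains of the type II IL-4 receptor, which binds IL-4 and IL-13, were abundant. IL4R (chromosome 16, 27325251 to 27376099) had 155, 153, 120, 135, 123, 138, 169 and 153 CPM, or 39.5 ± 4.69 RPKM. IL13RA1 (chromosome X, 117861559 to 117928496) had 165, 117, 131, 141, 122, 158, 111 and 135 CPM, or 33.8 ± 4.79 RPKM. Their ranges overlapped, and the log2 ratio of RPKM + 0.1 was 0.23 ± 0.28 with IL4R higher in 7 of 8 libraries (exact permutation, adjusted p = 0.0312). The ratio was -0.25 when the length of all exons of the gene was used in place of the canonical transcript, so no order of these 2 genes holds across the length measures. IL2RG, the common gamma chain of the type I receptor, had 0.411 CPM and lay 6.72 ± 0.12 below IL4R on the log2 scale (the ratio of IL4R over IL2RG, exact permutation, adjusted p = 0.00901). The decoy IL13RA2 had 0.0938 CPM.

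Of the IL-1 receptor chains, the accessory chain IL1RAP was detected and the ligand-binding chain IL1R1 was not. IL1RAP had 26.1 ± 8.51 CPM, from 13.1 in replicate 8 through a median of 27.6 to 37.9 in replicate 1. IL1R1, which binds IL-1, had 1.02 ± 0.193 CPM and was not detected in every library. The log2 ratio of IL1R1 over IL1RAP was -4.17 ± 0.41, with IL1RAP higher in 8 of 8 libraries (exact permutation, adjusted p = 0.00901). IL1R2, the decoy, had 0.0251 CPM. IL1RL1, the IL-33 receptor ST2, had 3.69 CPM, from 2.37 to 4.90, and IL33 lay 4.16 on the log2 scale of RPKM + 0.1 below it, a value set by the pseudocount because IL33 had 0 counts in 4 libraries (ratio -4.16 ± 0.39, exact permutation, adjusted p = 0.00901). The ratio was -6.94 with a pseudocount of 0.01 and -2.19 with 0.5. IL18BP, a soluble binder of IL-18 whose interval overlaps NUMA1, had 12.4 ± 1.49 CPM, and IL18 lay below it in 8 of 8 libraries (ratio -3.03 ± 0.21, exact permutation, adjusted p = 0.00901). All 14 receptor-proximal adaptors of the IL-1 and IL-17 receptors were detected, among them IRAK1 at 255 ± 25.6 and MYD88 at 73.3 ± 10.3 CPM.

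Several receptor genes of the IL-17, IL-10 and IL-15 families were detected as well. IL17RA had 54.3 ± 7.19 CPM and its partner IL17RC 27.5 ± 7.58 CPM. Per canonical length IL17RC was higher in 8 of 8 libraries (log2 ratio of IL17RA over IL17RC -0.81 ± 0.24, exact permutation, adjusted p = 0.00901), but the ratio was -0.021 with the length of all exons, so the order rests on the transcript chosen. On the authors' values, which may not be per length, the ratio was -0.10. IL17RD had 3.38 CPM and IL17RB 2.33 CPM. IL10RB, shared by IL-10, IL-22 and interferon lambda, had 39.8 ± 7.92 CPM, while the IL-10-binding chain IL10RA had 0.0404 CPM and 0 counts in 4 libraries (log2 ratio 7.52 ± 0.30, exact permutation, adjusted p = 0.00901). This ratio too is set by the pseudocount, and was 10.2 with 0.01 and 5.34 with 0.5 in its place. IL28RA, the interferon lambda chain now named IFNLR1, had 1.77 CPM. IL15RA, which presents IL-15, had 21.0 ± 3.35 CPM, and IL15 lay below it in 8 of 8 libraries (log2 ratio -2.37 ± 0.46, exact permutation, adjusted p = 0.00901).

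The remaining detected receptors were IL27RA with 9.56 CPM, IL3RA with 2.41 CPM and IL12RB1 with 2.15 CPM. IL4I1, the amino acid oxidase, had 2.20 CPM and an interval that overlaps other genes. IL7R had a mean of 2.49 ± 1.56 CPM, but was below 1 CPM in replicates 2 and 8 (0.421 and 0.473 CPM) and reached 4.59 CPM in replicate 3. Of 23 JAK, STAT and SOCS genes, 20 were detected, among them JAK1 at 333.8 ± 75.3 and STAT6, which acts below IL-4 and IL-13, at 144.9 ± 9.04 CPM.

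**Figure D3:**
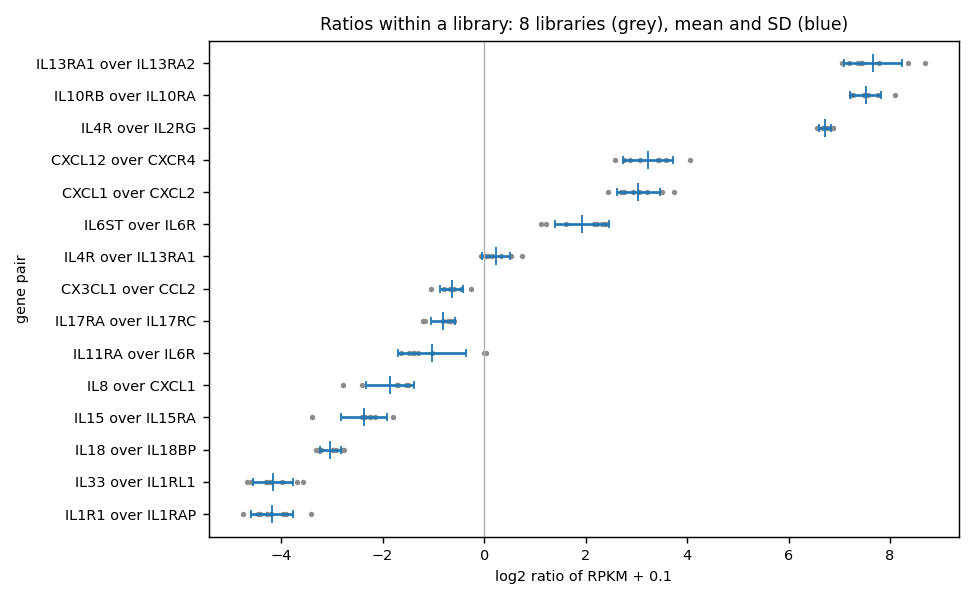
Log2 ratio of RPKM + 0.1 within a library for the 15 gene pairs tested, with 1 grey point per library and the mean ± SD of 8 libraries in blue. All 8 points lie on 1 side of 0 in 13 pairs, and the pairs IL4R over IL13RA1 and IL11RA over IL6R have points on both sides.

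Levels of 4 of the 39 detected members (10.3%) varied between replicates beyond the trend for genes of their abundance, against 4.66% of all 11980 detected genes (edgeR goodness-of-fit test, Benjamini-Hochberg adjusted p under 0.05). At an unadjusted p under 0.05 there were 6 of 39 members, against 13.1% of all detected genes. The 4 were IL6ST (adjusted p = 0.0175), CXCL2 (0.0232), IL8 (0.0292) and IL11 (0.0336). IL8 spanned a 4.19-fold range between libraries. Leaving out single libraries left 1 to 4 of these calls, and no member was called in all 8 such fits. IL6ST lost its call without replicate 2 (adjusted p = 0.101), IL8 without replicate 1, 4 or 5 (at most 0.287), CXCL2 without replicate 1, 2, 4, 5 or 7 (at most 0.187) and IL11 without replicate 1, 2, 5 or 7 (at most 0.16). In this bulk RNA, fewer cells making a transcript and less of it per cell cannot be told apart.

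The scale of the values separated IL6ST from the other 3. The SD of IL6ST was 0.68 on log2(CPM + 0.1) and 0.21 on the authors' CQN values, and with offsets for length and GC content in the fit its adjusted p was 1 (edgeR). The SD of IL8 was 0.68 and 0.61 on these scales, that of CXCL2 0.71 and 0.77, and that of IL11 0.67 and 0.76. With these offsets edgeR called 6 members (background 6.51%): CXCL2 (adjusted p = 3.07e-06), IL8 (5.14e-06), IL11 (9.67e-06), CXCL1 (0.000115), IL6 (0.00326) and CXCL10 (0.0211). IL1RAP, IL17RC and CCL5 likewise had a smaller SD on the CQN scale, at 0.15, 0.08 and 0.17 against 0.52, 0.37 and 0.38 on log2(CPM + 0.1). Over all detected members the median SD was 0.33 on log2(CPM + 0.1) and 0.26 on the CQN values, with 25 of 39 lower on the latter. For all detected genes the medians were 0.28 and 0.16, and 74.2% were lower.

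**Figure D4:**
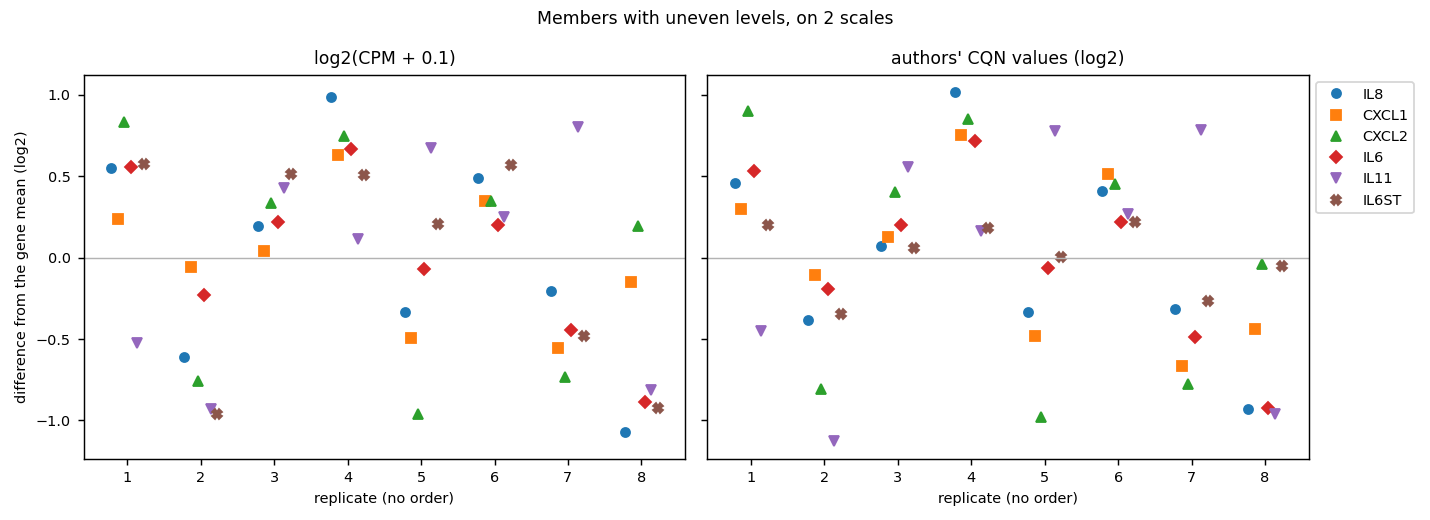
Difference from the gene's mean (log2) in each replicate for IL8, CXCL1, CXCL2, IL6, IL11 and IL6ST, on log2(CPM + 0.1) at left and on the authors' CQN values at right. The points of IL6ST spread with an SD of 0.68 at left and 0.21 at right, while IL8, CXCL2 and IL11 keep SDs above 0.6 on both scales.

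IL6 and IL8 rose and fell together between libraries. Their log2(CPM + 0.1) values had Pearson's r = 0.937 (exact permutation over all pairings, two-sided, p = 0.00102, adjusted p = 0.00407 over 4 relations) and Spearman's rho = 0.905 (exact p = 0.00456, adjusted p = 0.0182, n = 8). Without replicates 4 and 8, the 2 farthest from the median, r was 0.828, and on the authors' CQN values it was 0.947. Replicates 4 and 1 were highest and replicate 8 lowest for both genes. CXCL1 and CXCL2 had r = 0.840 (exact permutation p = 0.00947, adjusted p = 0.0189) and rho = 0.809 (exact p = 0.0218, adjusted p = 0.0436). With replicates 4 and 7, the farthest from the median, left out, r was 0.786. The paralogs may share reads, and leaving out replicate 4 or 5 took the adjusted p of their relation above 0.05.

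IL8 and CXCL1 had r = 0.727 (exact permutation p = 0.0435, adjusted p = 0.058), which missed the threshold, with rho = 0.762 (exact p = 0.0368, adjusted p = 0.049). On the authors' values r was 0.888 (exact permutation, adjusted p = 0.00858), and without replicates 4 and 8 it was 0.72. For CCL2 and IL8 no relation was found over the 8 libraries (r = -0.152, exact permutation p = 0.717, adjusted p = 0.717, and rho = -0.238, exact p = 0.582). Without replicates 5 and 7, the farthest from the median, r was -0.719, and on the authors' values over all 8 libraries it was 0.194. With single libraries left out r ran from -0.384 (without replicate 5) to 0.379 (without replicate 8). In the 6 libraries without replicates 2 and 8, a choice made after seeing the data, it was 0.900 (exact permutation, adjusted p = 0.0194). The sign of this relation thus changed with the libraries used. The labels give no batch within which these relations could be repeated.

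Genes that process these cytokines were present. Of 13 listed proteases and pore-forming genes 11 were detected, including CASP1, which cleaves pro-IL-1 beta and pro-IL-18, at 40.3 CPM, and CAPN2 at 591.7 CPM, while the inflammasome sensor NLRP3 had 0.445 CPM. In this list ADAM10, the sheddase of CX3CL1 and CXCL16, and GSDMD, the pore through which IL-1 leaves cells, varied above the trend (edgeR, adjusted p = 0.00881 and 0.0396). ADAM10 was lowest in replicates 8, 2 and 7 (50.3, 74.6 and 108.4 CPM, against 159.2 to 190.9 in the others) and GSDMD highest in replicates 8 and 2 (126.1 and 117.3 CPM). These libraries have negative length slopes, and the part of the slopes in these values was not tested. Of 15 colony stimulating factors and related genes 4 were detected, with CSF1 at 56.3 ± 5.55 CPM, while CSF3 had 1.70 and CSF2 0.421 CPM. MIF is listed at 0 in every library, and its interval overlaps LOC284889, so its level cannot be read from these counts.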

How the data were processed

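Polyadenylated RNA of 8 hCMEC/D3 replicates, made into libraries with Illumina's TruSeq kit (version 2, per the labels), was sequenced. The submitters' processing notes name CASAVA 1.9, TopHat2 2.0.6, HTSeq and hg19. The strand setting, the annotation and the parameters of the CQN normalisation are not given in the sources used here. Whether a difference between genes on the CQN values is per length is therefore not known. The authors deposited raw counts per gene and, for 13962 genes (59 members), CQN-normalised log2 values, per the file headers; the log2 scale was judged from the deposited values. All 186768 counts were even, so depth and limits are given as read pairs (34694272 to 45102622 per library).

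CPM used TMM scaling (edgeR 4.0.16, R 4.3.3) on the counts as deposited. Transcript lengths came from GENCODE 44 lifted to GRCh37, with 149 of 153 members matched. Of genes matched to that annotation, 4523 started 1 base earlier in the table and 623 at the same base, so positions were read as counting from 0 and are printed 1-based. RPKM is CPM per kilobase of the canonical transcript. Variation was tested in edgeR by goodness of fit to a trended dispersion over all detected genes, with Benjamini-Hochberg adjustment. Gene pairs and relations used exact two-sided permutation on log2 values with a pseudocount of 0.1, in Python 3.11.15 with numpy 2.4.6. Ranks for Spearman's rho came from scipy 1.17.1, and the Benjamini-Hochberg adjustment of these p-values from statsmodels. Of 18 pairs listed 15 were tested, since in 3 neither gene was detected, and 4 of 6 relations were run. Promoter sequences are from RefSeq (GRCh38.p14), with 117 members matched. In simulated counts without any changed gene, 0 of 11839 were called, and with 200 genes raised 4-fold in 1 library, 176 of them were called with 4 false calls among 11830. These counts were drawn with the same trended dispersion that the test assumes and without length slopes. Few false calls were thus set in advance, and the simulation cannot give the rate of false calls in the real libraries.

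The text names every detected or called member, all genes of pairs and relations, the 5 highest undetected members, and a fixed set of chemokine and interleukin genes. A few others, named for their overlaps or 0 counts, were chosen after their values were seen. The members, lists, pairs and motifs were chosen with earlier results of these data known. Alternatives covered scaling, filters, the dispersion trend (DESeq2 1.42.0), length measures and left-out libraries. Genes of the lists that the text does not name are not reported here.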

Additional observations from a re-analysis of the deposited data

Results flagged for a closer look

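Each of the 39 detected members and 15 gene ratios was examined for a library far from the other 7. The gap of the highest or lowest library to the next, as a share of the range, had to exceed Dixon's critical value for 8 samples. Chance alone flags about 1 in 20 such groups.

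IL17RB, a chain of the IL-25 receptor, had 3.43 CPM in replicate 3, against 1.86 to 2.51 CPM in the other libraries (gap share 0.59), and replicate 3 was highest on the CQN values too (2.81, others 1.99 to 2.46). The log2 ratio of IL15 over IL15RA was -3.39 in replicate 8, against -2.40 to -1.79 in the others (gap share 0.619). In that library IL15 was lowest (3.03 CPM) and IL15RA highest (26.2 CPM), and its length slope was -0.34. On the authors' CQN values replicate 8 did not stand apart: the ratio was -2.57 there and -2.65 to -1.77 in the other libraries, and IL15RA was lowest in replicate 8 (5.24).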

How the results depend on the processing

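The count of 39 detected members became 66 with at least 10 counts in every library, and ran from 39 to 41 with single libraries left out. The count of 4 members varying above the trend was 11 with DESeq2's fitted trend (23.5% of all genes), 7 with genes of at least 1 count in 1 library (3.26%), 6 with at least 10 counts in every library (4.36%), 6 with length and GC offsets (6.51%), 5 in the 6 libraries without replicates 2 and 8 (2.75%, chosen after seeing the data), and 1 to 4 with single libraries left out (3.15% to 4.09%). It was 1 without replicate 1, 2 or 5 and 2 without replicate 4 or 7. IL6ST lost its call without replicate 2 (edgeR adjusted p = 0.101), and without replicates 2 and 8 (0.0512). IL8 lost it without replicate 1 (0.0504), 4 (0.287) or 5 (0.0587).

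CX3CL1 over CCL2 (-0.64) was 1.49 on CPM, 1.39 on the authors' values and -0.12 with the length of all exons. IL17RA over IL17RC (-0.81) was 1.01, -0.10 and -0.021 in the same order. IL4R over IL13RA1 (0.23) was 0.089 on CPM, -0.25 with all exons, 0.16 without replicates 2 and 8, and 0.16 to 0.27 with single libraries left out, where 7 of 8 missed the threshold. IL11RA over IL6R ran from -1.18 to -0.94, and 6 of 8 missed it. The relation of IL8 and CXCL1 (r = 0.727) passed the threshold on the authors' values (0.888), without TMM (0.749) and without replicates 2 and 8 (0.978), and ran from 0.573 to 0.831 with single libraries left out. That of CXCL1 and CXCL2 ran from 0.783 to 0.904. That of CCL2 and IL8 was 0.194 on the authors' values, 0.900 without replicates 2 and 8, and ran from -0.384 to 0.379. The other 11 ratios and the relation of IL6 and IL8 kept their direction and side of the threshold in every alternative run. For ratios with only 1 detected gene, the detection rule favoured this outcome. The sizes of the 11 ratios did move, with the pseudocount for genes near 0 and with the length used. CXCL12 over CXCR4 (3.23) was 2.20 with all exons, and IL1R1 over IL1RAP (-4.17) was -3.26. The causes of these changes were not tested. The gene ratios were paired within each library, but samples could not be paired because the 8 libraries form 1 group.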

Other observations

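Replicate 5 held the lowest level of 7 of the 13 detected chemokines (53.8%): CCL2, CCL5, CX3CL1, CXCL10, CXCL11, CXCL2 and CXCL6. They were lowest there on CPM and on the authors' CQN values alike, while 8.13% of all detected genes were lowest in that library on CPM and 11.9% on CQN. Over all 39 detected members, 11 were lowest and 2 were highest in replicate 5 on CPM. The 2 highest there were IL15 (6.25 CPM) and IL12A (2.67 CPM). IL11 had 3.50 CPM in replicate 5, the second highest of its 8 values. The pattern of replicate 5 was noticed in the data and was not tested.

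Below the detection level, IL7R, the IL-7 receptor chain, spanned a 10.9-fold range between replicates 2 and 3. With genes of at least 10 counts in every library, it varied above the trend (edgeR, adjusted p = 2.37e-07), as did IL1A (0.00822) and CCL14 (0.00131). IL7R had 0.421 and 0.473 CPM in replicates 2 and 8, where CCL14 was highest with 1.99 and 2.22 CPM. IL7R still passed in the 6 libraries without replicates 2 and 8 (edgeR, adjusted p = 0.0115). IL11RA had 15.5 and 16.6 CPM in these 2 libraries and 6.53 to 7.84 CPM in the other 6, and its SD was 0.55 on log2(CPM + 0.1) and 0.27 on the CQN values.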
